A study of Mus musculus with 4 samples.

Results

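The library prepared from the spinal cords of SCI mice held 231 cell barcodes, and 93 of them carried over 50% of their unique molecular identifiers (UMIs) on mouse genes. These 93 barcodes are the mouse host cells described here, out of 22830 barcodes in the whole series. They made up 40.3% of the cord library (95% Clopper-Pearson interval 33.9 to 46.9%, which covers counting error only). The rule fell in a wide gap, since the barcodes just inside it held 81.0%, 92.0% and 98.7% mouse UMIs and those just outside it 21.0%, 12.6% and 12.5%. The barcode at 81.0% held 36688 mouse UMIs and the rest of its UMIs were human, where the median mouse barcode had 43 human UMIs. Whether it held a human cell as well was not tested, and it was kept.

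The study asked how human leukocytes respond to SCI in humanised mice, and 4 droplet-based scRNAseq libraries were made, 1 for each of naïve blood, sham blood, SCI blood and SCI cord. All animals were NSG-SGM3 mice (age label 15 weeks), which are NOD mice with the alleles Prkdcscid and IL2rgtm1Wjl and the transgene 1Eav for human IL3, CSF2 and KITLG, and that had been irradiated as pups and engrafted with human CD34+ stem cells from cord blood. The SCI group received a contusion at T9, the sham group a T9 laminectomy and the naïve group no surgery, and the operated groups were taken at 7 dpi. By the labels, male and female animals were pooled for the SCI libraries, whereas the other blood libraries came from males. The strain lacks its own T, B and NK cells and expresses human IL-3, GM-CSF (CSF2) and stem cell factor (KITLG) from a CMV promoter. No cord library of naïve or sham mice was analysed here, and the effect of SCI on these cord cells could therefore not be measured. The cord suspension was obtained by papain digestion and enriched for human CD45 on a magnetic column and by FACS. The mouse barcodes are cells that came through that enrichment, and their shares were set by the sort as well as by the tissue.

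Microglia are the resident phagocytes of the spinal cord, which survey the tissue through purinergic receptors such as P2ry12 and depend on signalling through Csf1r. After injury they withdraw their homeostatic genes and take up a phagocytic, lipid-handling programme that runs through the receptor Trem2 and its adaptor Tyrobp. Blood monocytes enter the lesion at the same time and become macrophages that clear myelin and dead cells.

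Mouse UMIs in the 93 barcodes came to 2692184, with a median of 26533 per barcode (range 812 to 78689) and a median of 4480 mouse genes. With 1 library and animals pooled in it, there is no measure of spread between animals. No test was possible, and all intervals cover counting error only. Levels are given over summed counts, in which deep barcodes weigh most, and for some genes per barcode as well. Levels are CPM (counts per 1000000 mouse UMIs), left free of ribosomal protein and mitochondrial genes. No cord mouse barcode was shared with a blood library, and 1 barcode of the cord library recurred in SCI blood. Free mouse RNA was low, as the 138 human barcodes of the cord library held a median of 58 mouse UMIs each at a median depth of 8569.5 human UMIs. The 3 genes proposed as markers of these cells were present in nearly all of them, with Apoe, the main lipid carrier of the central nervous system, in 93 of 93 barcodes. C1qa, a chain of the first complement component, was found in 88 barcodes, and Tmsb4x, an actin-binding peptide of most motile cells, in 93. Per human barcode, free RNA gave 2.40 UMIs of Apoe and 0.413 of C1qa, against 956 and 361 in the microglia-like barcodes defined below.

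Nearly all of the mouse cells were phagocytes by their markers, and most were microglia-like. Each barcode was named from its own counts of marker genes (a marker counted when it had at least 2 UMIs), and 74 of 93 were microglia-like (79.6%, 69.9 to 87.2%). A further 10 were macrophage-like (10.8%, 5.28 to 18.9%). The split between these classes was set at 6 of 12 microglia markers, and 4 macrophage-like barcodes held 4 or 5 of the markers while 6 microglia-like barcodes held exactly 6, so that the boundary is a range rather than a gap. The other barcodes were 2 border or perivascular macrophage-like, 2 neutrophil-like, 1 monocyte-like, 1 oligodendrocyte precursor-like and 1 fibroblast-like. The last 2 barcodes stayed unnamed, with 812 and 815 UMIs of which 90.3% and 94.2% were mitochondrial. No barcode was named as endothelial, pericyte, astrocyte, ependymal, oligodendrocyte, neuronal or erythroid.

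**Figure D1:**
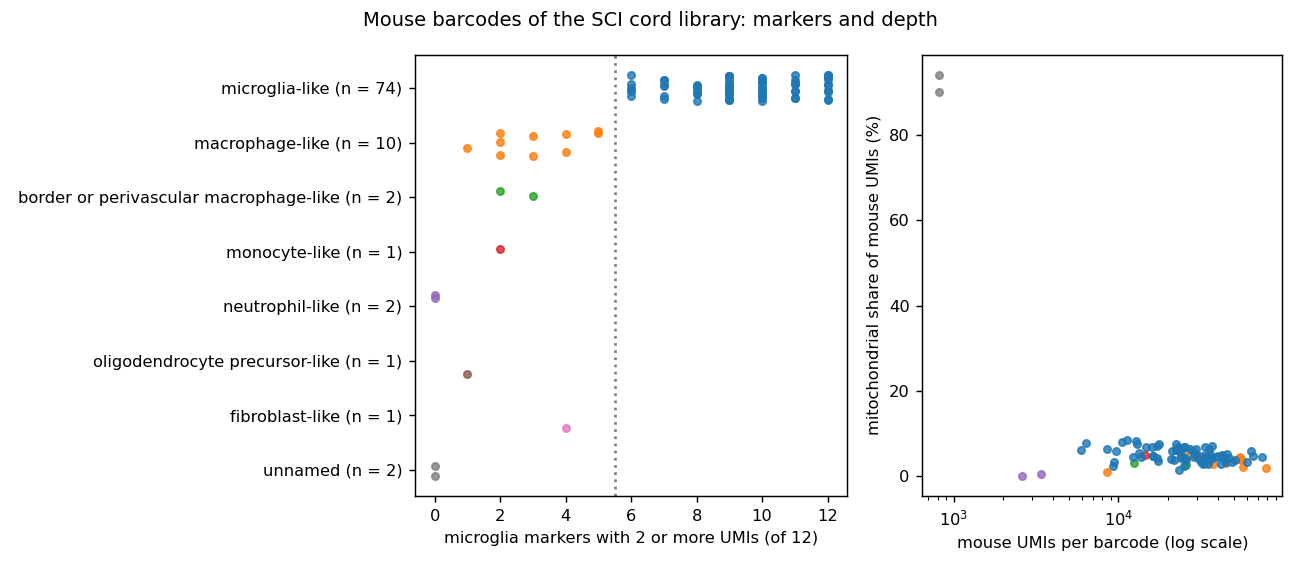
Each point is 1 of the 93 mouse barcodes. Left, the number of the 12 microglia markers with at least 2 UMIs (x axis) for each class (y axis), with the dotted line at the limit between macrophage-like and microglia-like; right, the mitochondrial share of UMIs in percent (y axis) against mouse UMIs per barcode (x axis, log scale), in which the 2 unnamed barcodes stand alone above 90% and the 2 neutrophil-like barcodes lie at 2607 and 3411 UMIs.

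The microglia-like barcodes carried genes of resident microglia. The microglia genes described here were among the markers used in naming the class, so that their presence was fixed in part by the naming. Cx3cr1, the receptor for the neuronal chemokine fractalkine, was found in 74 of 74 and ranged from 237 to 4637 CPM per barcode with a median of 1427. P2ry12, the ADP receptor that guides microglial processes, was found in 69 and ranged from 0 to 5174 CPM per barcode with a median of 384. Tmem119, a membrane protein nearly restricted to microglia, was found in 68 barcodes, and the transcription factor Sall1, which maintains microglial identity, in 39. Over all mouse barcodes of the cord, Cx3cr1 was found in 82, P2ry12 in 74, Tmem119 in 73 and Sall1 in 39. Among these genes, only Sall1 was confined to the microglia-like class. None of P2ry12, Ifit3 or Isg15 had a UMI in the 138 human barcodes, and Tmem119 had 1. The level of P2ry12 thus varied widely among microglia-like barcodes, which is taken up below.

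The 7 barcodes of rarer classes were each recognisable by several genes. The 2 border or perivascular macrophage-like barcodes had Lyve1, a hyaluronan receptor, at 1257 and 1295 CPM, and the folate receptor Folr2 at 1257 and 1573. They had no UMI of P2ry12, Cd163, Cd74 or H2-Aa, and they did have Ccr2, the receptor that brings monocytes out of the bone marrow, at 718 and 1018 CPM. Their Apoe was only 539 and 648 CPM and their C1qa 44.9 and 92.5 CPM, far below the microglia-like barcodes. Each held 8 of the 9 markers of its class, but they also held 4 and 3 of the 9 monocyte markers, and the name is therefore tentative. The monocyte-like barcode was rich in Chil3 (18323 CPM), Plac8 (5506 CPM) and Ccr2 (2257 CPM), held 0 UMIs of C1qa and had Apoe at 542 CPM.

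Both neutrophil-like barcodes were shallow, with 2607 and 3411 UMIs. They held 6 and 5 of the 14 markers of their class, and Ly6g, 1 of these markers, had no UMI in either. S100a8 and S100a9, which together form calprotectin, stood at 40751 and 55858 CPM for S100a8 and at 105873 and 125906 CPM for S100a9. The cytokine Il1b reached 21574 and 36232 CPM and the neutrophil chemoattractant Cxcl2 5993 and 22041 CPM. The secondary granule genes Camp, Ngp and Ltf, which are expressed while neutrophils mature in the marrow, had no UMI in either barcode and were thus not detectable at this depth.

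The oligodendrocyte precursor-like barcode held all 8 of 8 markers of that class, among them the lineage factors Olig1 (2497 CPM) and Olig2 (1753 CPM) and the growth factor receptor Pdgfra (1063 CPM). Its count of the myelin gene Mbp was 1 UMI. The fibroblast-like barcode had the fibrillar collagens Col1a1 at 41644 CPM, Col1a2 at 25191 CPM and Col3a1 at 20161 CPM, with fibronectin (Fn1) at 10315 CPM. These 2 cells were the only named ones that were not myeloid, and each rests on a single barcode.

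**Figure D2:**
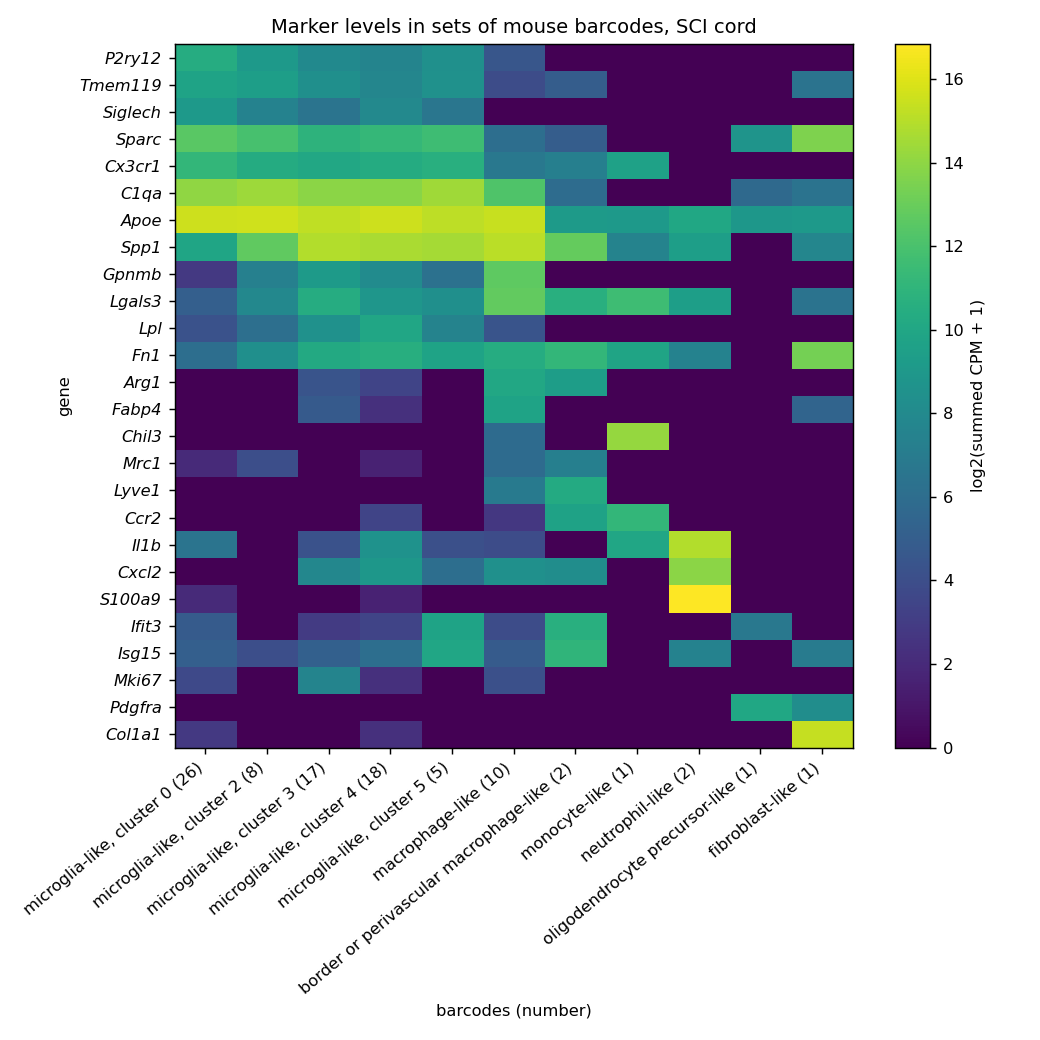
Colour shows log2(summed CPM + 1) of 26 genes (rows) in sets of mouse barcodes (columns, with the number of barcodes). P2ry12, Tmem119 and Siglech are brightest in cluster 0 of the microglia-like barcodes, Spp1 is bright in clusters 2 to 5 and in macrophage-like barcodes, and Fabp4, Lyve1, S100a9, Pdgfra and Col1a1 each mark 1 or a few of the other classes.

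Several genes of lipid handling, lysosomes and complement were abundant in the microglia-like barcodes, at levels that differed between barcodes. Without an uninjured cord as reference, these levels do not show whether the cells were activated. Apoe, which exports lipid from phagocytes, ranged from 1989 to 120815 CPM per barcode with a median of 44603. Trem2, the lipid-sensing receptor of phagocytes, ranged from 1305 to 7116 CPM per barcode with a median of 3675, and its adaptor Tyrobp ranged from 2549 to 12072 CPM per barcode with a median of 5912. Ctsd, the main aspartic protease of lysosomes, ranged from 4729 to 41686 CPM per barcode with a median of 22593. The 3 chains of C1q, which tags debris and synapses for removal, were found in all 74 barcodes, with C1qa ranging from 5558 to 34878 CPM per barcode with a median of 16465.

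Complement C3, the next component, was low by contrast, with UMIs in 14 of 74 barcodes and a summed level of 10.7 CPM. The MHC class II list was uneven. H2-Aa, its alpha chain, had 0 UMIs in the microglia-like barcodes (upper 95% Poisson bound 2.32 CPM), and the invariant chain Cd74 stood at 36.5 CPM. The chains of the peptide-loading molecule were found more widely, H2-DMa in 68 of 74 barcodes at 209 CPM and H2-DMb1 in 67 at 142 CPM. MHC class I genes were present throughout, with B2m ranging from 909 to 8422 CPM per barcode with a median of 3062. Growth factors were present at modest levels, with Tgfb1 at 309.8 CPM, Igf1 at 139 CPM and Pdgfa at 111 CPM.

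Clustering the 93 barcodes on their most variable genes gave 6 clusters, numbered 0 to 5, and the microglia-like barcodes fell into 5 of them, with 26 in cluster 0, 8 in cluster 2, 17 in cluster 3, 18 in cluster 4 and 5 in cluster 5. Cluster 1 held 7 macrophage-like barcodes and the monocyte-like one. The clusters were formed from the same counts that are described next, so that the differences among them are a description and not a test. They also differed in depth, with a median of 16193 UMIs in cluster 0 and of 31125, 33362 and 36729 UMIs in clusters 3, 4 and 5. Whether depth had a part in the differences was not tested beyond thinning, in which each barcode was reduced to 1 fixed number of UMIs.

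The microglia-like barcodes differed in their homeostatic genes and in an injury-associated programme. The 14 homeostatic genes summed to 24362 CPM in cluster 0, 16368 in cluster 2, 13220.2 in cluster 3, 13413 in cluster 4 and 14257 in cluster 5. The injury- and disease-associated list summed to 87074, 116927, 129883, 123901 and 116329 CPM in the same order. Cluster 0 was thus the most homeostatic, and clusters 3 to 5 together (40 microglia-like barcodes) were set against its 26. Abundant genes weigh most in such sums. Spp1 alone stood at 934 CPM in cluster 0 and at 28143 CPM in clusters 3 to 5, and much of the difference in the injury-associated sum came from it. Apoe, of the same list, was slightly lower in clusters 3 to 5 (log2 ratio -0.22).

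Cluster 0 was the reference because its homeostatic sum was highest, and cluster 2 was left out. The direction of the homeostatic genes was thus fixed in part by the choice of groups. Among the homeostatic genes, 9 of 14 were lower in clusters 3 to 5 by over 2-fold and none was higher, where 9.85% of the 6906 genes compared were lower and 8.05% higher. With 5 counts added to each sum, 157 genes were higher and 1006 lower in place of 556 and 680. P2ry12 ranged from 238 to 5174 CPM per barcode with a median of 1172 in cluster 0, and from 0 to 1489 CPM per barcode with a median of 118 in clusters 3 to 5. Its summed level was 5.76-fold lower in the latter (log2 ratio -2.52, -2.75 to -2.31), although the groups overlapped. After thinning to 5000 UMIs, P2ry12 was found in 25 of 26 barcodes of cluster 0 and 20 of 40 of clusters 3 to 5.

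Tmem119 was 865 CPM in cluster 0 and 285 in clusters 3 to 5, and Siglech, a sialic acid-binding lectin, 534 and 158. Csf1r, the receptor that microglia need to survive, ranged from 1599 to 3928 CPM per barcode with a median of 2614 in cluster 0 and from 144 to 2459.6 CPM per barcode with a median of 1077 in clusters 3 to 5. Cst3, an abundant cystatin of resting microglia, was 34577 and 11812 CPM. Olfml3, a secreted glycoprotein of microglia, stood apart from these genes, with 1384 and 873 CPM, a ratio of less than 2-fold. The lower levels were therefore uneven across the list. The other genes with the lowest ratios among the abundant ones included the lens crystallin Crybb1 (-3.10 on the log2 scale), the transporter Abca9 (-3.03) and the chemokine receptor Ccr6 (-2.92).

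The injury-associated list had 10 of 21 genes higher by over 2-fold in clusters 3 to 5 and none lower. Spp1, osteopontin, a secreted matrix protein of phagocytes in damaged tissue, ranged from 0 to 8369.8 CPM per barcode with a median of 248 in cluster 0 and from 744 to 95822 CPM per barcode with a median of 19023 in clusters 3 to 5. The summed levels were 934 and 28143 CPM, a 30.1-fold difference (log2 ratio 4.91, 4.75 to 5.08). The lower part of the range in clusters 3 to 5 overlapped with the upper part of cluster 0, in which 41.2% of the UMIs came from 1 barcode. Free RNA gave 1.03 UMIs of Spp1 per human barcode, against 444 per microglia-like barcode.

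Gpnmb, a transmembrane glycoprotein of lipid-laden phagocytes, was 6.01 CPM in cluster 0 and 367 in clusters 3 to 5, with UMIs in 2 of 26 and 27 of 40 barcodes. Lgals3, galectin-3, was 33.0 and 805 CPM, and lipoprotein lipase (Lpl) 18.0 and 606 CPM. Fabp5, a fatty acid-binding protein, was 132 and 1225 CPM, and the growth factor Igf1 had UMIs in 6 of 26 and 32 of 40 barcodes. By contrast, 3 other genes of phagocytes differed little, with Apoe at 49239 and 42353 CPM, Trem2 at 3537 and 3683 CPM and Tyrobp at 5279 and 6108 CPM. Axl, a receptor for apoptotic cells in the same list, was also level at 303 and 279 CPM.

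Over the 74 microglia-like barcodes, each thinned to 5000 UMIs, the homeostatic and injury-associated lists ran against each other (Spearman's rho -0.64), as did P2ry12 and Spp1 (-0.66). These values are descriptions over barcodes of 1 library, and the lists share no gene. The list counts are sums, in which abundant genes such as Spp1 weigh most. The homeostatic list also ran against the depth of the barcode before thinning (-0.52) and the injury-associated list with it (0.39), and the part of depth in the relation was not tested.

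**Figure D3:**
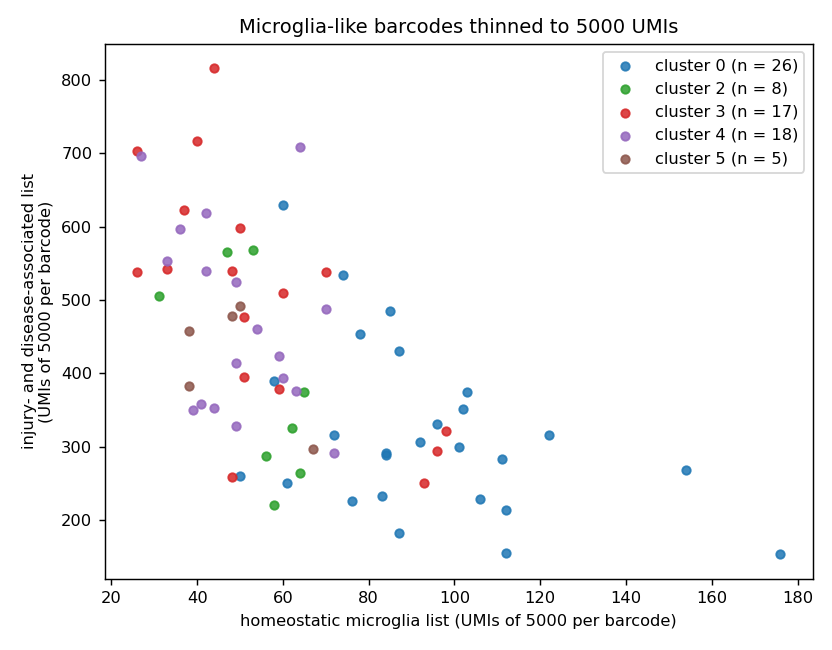
Each point is 1 of the 74 microglia-like barcodes thinned to 5000 UMIs, coloured by cluster. The x axis gives UMIs of the homeostatic list and the y axis UMIs of the injury- and disease-associated list, both per 5000 UMIs. Barcodes of cluster 0 lie to the right and low, and those of clusters 3 to 5 to the left and mostly higher, with a continuous spread between them (Spearman's rho -0.64).

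Other groups of genes, some of which share members such as Spp1, Lpl and Fabp5 with the injury-associated list, differed along the same axis. Of the lipid handling list, 8 of 14 genes compared were higher in clusters 3 to 5 and none lower. The matrix and remodelling list had 6 of 9 higher, among them fibronectin, with Fn1 at 66.1 CPM in cluster 0 and 1305 in clusters 3 to 5. The lipid droplet protein Plin2 was 126 and 598 CPM. The hypoxia and glycolysis list had 10 of 14 higher and none lower, including lactate dehydrogenase (Ldha, 219 and 614 CPM), Pgk1 (135 and 348 CPM) and the glucose transporter Slc2a1 (9.01 and 63.2 CPM).

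Oxidative phosphorylation genes were near level, with 0 of 19 past 2-fold in either direction and a median log2 ratio of 0.49, beside -0.11 over all genes compared. The lysosome list had 1 of 19 higher, a share below that of all genes, although cathepsin B (Ctsb) was 3711 CPM in cluster 0 and 7405 in clusters 3 to 5. The ferritin chains, which store the iron set free from red cells, were higher but by under 2-fold, with Fth1 at 9449.7 and 18098 CPM and Ftl1 at 6119.6 and 11662 CPM. The iron and haem list they belong to had 0 of 7 higher and 2 lower, namely the iron exporter Slc40a1 (log2 ratio -1.37) and Ncoa4, the receptor for ferritin breakdown (-1.02), with a median of 0.03. Neither MHC class I genes (0 of 11) nor pattern recognition genes (0 of 11) had a member past 2-fold. The chemokine and growth factor receptor list had none higher and 4 of 11 lower.

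The 8 microglia-like barcodes of cluster 2 lay between these states. Their homeostatic genes were nearer to clusters 3 to 5, P2ry12 was intermediate (564 CPM), and Spp1 (6911 CPM) lay between cluster 0 and the others. Their lysosome list was the highest of the microglia-like sets (104583 CPM, beside 76466 in cluster 0 and 89007 in cluster 3), and their level of dissociation-response genes the lowest (3848 CPM). Myelin RNA was also present in microglia-like barcodes, with Mbp in 43 of 74, ranging from 0 to 2426 CPM per barcode with a median of 38.0. Mbp was 244 CPM in cluster 2 and 36.0 in cluster 0, with 0.0507 UMIs per human barcode beside 2.57 per microglia-like barcode. A single barcode gave 75% of the 32 Mbp UMIs of cluster 2. The source of this RNA was not tested.

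**Figure D4:**
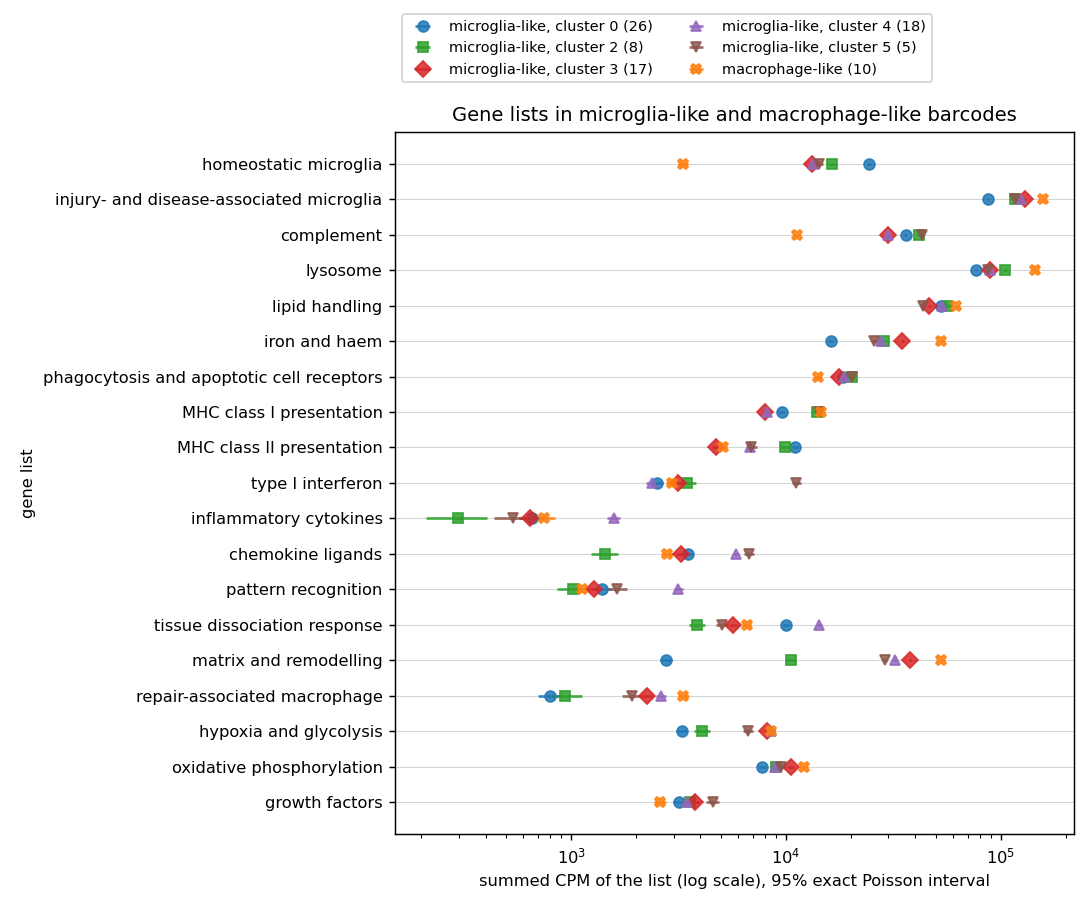
Summed CPM of 19 gene lists (y axis) on a log scale (x axis) in the microglia-like barcodes of each cluster and in the 10 macrophage-like barcodes, with 95% exact Poisson intervals that cover counting error only. The homeostatic list is highest in cluster 0 and lowest in the macrophage-like set, the matrix list spans from 2766 to 52738 CPM, and the interferon list is highest in cluster 5 at 11191 CPM.

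Clusters 3, 4 and 5 were each led by a separate group of genes. Cluster 3 was led by genes of cell division, among them Rrm2, Ccnb1 and Mki67. The cycling list summed to 1749.5 CPM in its microglia-like barcodes, against 174 in cluster 0, 196 in cluster 4 and 132 in cluster 5. At least 3 of 10 cycling markers were reached by 6 of its 17 microglia-like barcodes and by no microglia-like barcode of another cluster, so that most barcodes of the cluster did not reach it. The barcode with 81.0% mouse UMIs was among the 6, with 3 markers. Mki67, a protein of dividing nuclei, was found in 9 of 74 microglia-like barcodes, and 43.6% of its UMIs came from 1 barcode. Of the 10 macrophage-like barcodes, 3 reached the same number of markers. These counts were not thinned. The 3 macrophage-like barcodes had 54410, 44902 and 8540 UMIs and held 3, 5 and 8 of the cycling markers, in that order. The one with 8 cycling markers was thus the shallowest, and it lay in cluster 3 with 4 of 12 microglia markers. The median depth of the 6 microglia-like barcodes was 31546 UMIs. By summed counts, 0 of 10 cycling genes were higher by over 2-fold in macrophage-like than in microglia-like barcodes, and 4 were lower (median log2 ratio -0.84). Of all genes in that comparison, 5.25% were higher and 18.8% lower. The cluster also held the highest level of Lgals3 among the microglia-like sets (1361 CPM) and of Fabp5 (1989 CPM).

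Cluster 4 was led by inflammatory genes, which included Il1b, S100a8 and Cxcl2. The 2 neutrophil-like barcodes fell in this cluster, so the ranking of its leading genes includes them, and they are left out of what follows. Among its 18 microglia-like barcodes, Il1b was found in 8 at a summed 381 CPM, against 87.1 CPM in cluster 0 and 17.7 in cluster 3. Cxcl2 was found in 9 at 481 CPM and in none of cluster 0. The macrophage chemoattractants Ccl3 and Ccl4 were 1084 and 2162 CPM in cluster 4, but each was also found in part of cluster 0, with Ccl3 at 664 CPM, 58.4% of it from 1 barcode. The same cluster had the highest level of the immediate early and heat shock genes that tissue dissociation is known to induce, with a list sum of 14302 CPM, against 9972 in cluster 0, 5685 in cluster 3 and 5059.9 in cluster 5. Fos, the best known of these, was found in 18 of its 18 barcodes at 1386 CPM. The part of dissociation in the inflammatory genes was not tested.

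Cluster 5 was led by interferon-stimulated genes, and it was small, with 5 microglia-like barcodes and both border or perivascular macrophage-like ones. The 4 promoters below are shown because, of the 9 RefSeq promoters found for 8 of the 10 leading genes of the cluster, these 4 held the interferon motif defined next and the other 5 did not. They are the RefSeq sequences of mouse build GRCm38.p6, 250 bases before to 50 bases after the start of the gene, written 5′ to 3′ on the strand of the gene. Capitals mark matches to the interferon-stimulated response element, searched on both strands as GAAA, any 2 bases and GAAA again, with overlapping matches joined. Isg15 lies at chr4:156200769-156201068 on the minus strand, Rsad2 at chr12:26456403-26456702 on the minus strand, Ifit3 at chr19:34583279-34583578 on the plus strand and Ifit3b at chr19:34607707-34608006 on the plus strand.
Isg15: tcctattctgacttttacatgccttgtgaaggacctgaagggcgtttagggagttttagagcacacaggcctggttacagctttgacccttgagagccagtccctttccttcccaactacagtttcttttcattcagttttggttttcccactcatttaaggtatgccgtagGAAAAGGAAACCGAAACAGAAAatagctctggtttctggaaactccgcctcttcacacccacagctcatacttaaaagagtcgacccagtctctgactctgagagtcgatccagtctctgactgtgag
Rsad2: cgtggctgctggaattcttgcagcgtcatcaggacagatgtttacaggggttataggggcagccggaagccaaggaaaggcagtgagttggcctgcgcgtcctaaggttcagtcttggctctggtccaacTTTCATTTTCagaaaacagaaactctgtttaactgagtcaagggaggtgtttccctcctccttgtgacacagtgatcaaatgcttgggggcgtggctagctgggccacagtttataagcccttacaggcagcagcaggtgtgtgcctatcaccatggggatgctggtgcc
Ifit3: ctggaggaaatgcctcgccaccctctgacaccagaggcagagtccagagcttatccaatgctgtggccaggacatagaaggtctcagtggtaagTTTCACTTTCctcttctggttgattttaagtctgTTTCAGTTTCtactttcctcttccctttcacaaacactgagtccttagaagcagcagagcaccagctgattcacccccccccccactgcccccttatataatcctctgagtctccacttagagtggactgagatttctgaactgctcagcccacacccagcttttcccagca
Ifit3b: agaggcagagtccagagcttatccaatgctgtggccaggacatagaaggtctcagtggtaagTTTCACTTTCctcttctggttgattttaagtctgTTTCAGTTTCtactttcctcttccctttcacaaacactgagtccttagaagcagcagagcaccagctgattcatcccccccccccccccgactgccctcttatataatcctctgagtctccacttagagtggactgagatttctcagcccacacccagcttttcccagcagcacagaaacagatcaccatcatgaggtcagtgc

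The window of Isg15 held 3 overlapping matches, that of Rsad2 1, and those of Ifit3 and Ifit3b 2 each. The first and the last match of Isg15 began 78 and 66 bases before the start, the match of Rsad2 120, those of Ifit3 156 and 122, and those of Ifit3b 188 and 154. The motif was present in 1131 of 32851 mouse promoters of this length (3.44%) and in 7 of 13 promoters of the type I interferon list (12 of its 18 genes matched a promoter). It was found in 0 of 11 promoters of the genes that led cluster 4, and in 0 of 13 each for the inflammatory cytokine and homeostatic lists. The chemokine ligand list had it in 2 of 14 promoters, the lysosome list in 2 of 19 and the hypoxia and glycolysis list in 1 of 23. These matches describe the letters of the windows only.

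Isg15 encodes a ubiquitin-like protein, Ifit3 a member of a family that binds viral RNA, and Rsad2 the antiviral enzyme viperin. In the 5 microglia-like barcodes of cluster 5, Ifit3 was 33.8, 81.9, 356, 476 and 2788 CPM, and in the 2 border or perivascular macrophage-like barcodes 1018 and 1795 CPM. Isg15 was 101, 205, 391, 1795 and 2406 CPM in the former and 1480 and 2334 CPM in the latter. The signal was therefore steep within the cluster, and 1 barcode supplied 70.1% of the UMIs of Ifit3 in all microglia-like barcodes. Outside cluster 5, Ifit3 was 27.0 CPM in cluster 0, 6.65 in cluster 3 and 10.2 in cluster 4. The type I interferon list summed to 11191 CPM in cluster 5 and to 23933 CPM in the border or perivascular macrophage-like barcodes, against 2504, 3138 and 2368 CPM in clusters 0, 3 and 4. In clusters 3 to 5 as a whole, 10 of 18 genes of the list were higher than in cluster 0, but 0 of 18 were when cluster 5 was left out, and the log2 ratio of Ifit3 turned from 2.39 to -1.66. Ccl12, a monocyte chemoattractant, was 3401 CPM in cluster 5 and 729.7 in cluster 0.

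The macrophage-like barcodes differed from microglia by more than the loss of microglial genes, which the naming of the classes had fixed in part. They were deeper (median 49075 UMIs, against 26534), and 7 of 10 lay in cluster 1. Of the 7593 genes compared by summed counts, 5.25% were higher by over 2-fold in macrophage-like barcodes and 18.8% lower, with a median log2 ratio of -0.23. The balance turned with 5 counts added to each sum, which gave 673 genes higher and 381 lower in place of 399 and 1426. All 14 homeostatic genes were lower, of which 10 had served as markers in naming the classes. Siglech had no UMI in the macrophage-like barcodes.

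Macrophage-like barcodes were rich in lysozyme (Lyz2), which ranged from 29036 to 125947 CPM per barcode with a median of 63103. In microglia-like barcodes it ranged from 1119 to 99329 CPM per barcode with a median of 6155, so that the classes overlapped. Gpnmb ranged from 0 to 14161 CPM per barcode with a median of 3605, against a summed 274 CPM in microglia-like barcodes. Fabp5 ranged from 207 to 19618 CPM per barcode with a median of 7148 and Lgals3 from 517 to 13385 CPM per barcode with a median of 4619, with 915 and 595 CPM in microglia-like barcodes. These genes are shared by both classes at different levels.

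Other genes of this class were found in few microglia-like barcodes. Fabp4, the fatty acid-binding protein of adipocytes and macrophages, was found in 8 of 10 at 884 CPM and in 3 of 74 microglia-like barcodes at 8.82. F13a1, the transglutaminase subunit of clotting factor XIII, was found in 9 of 10 and ranged from 0 to 2009.5 CPM per barcode with a median of 662. It was also found in 9 of 74 microglia-like barcodes, at a summed 14.5 CPM, and in both border or perivascular macrophage-like ones at 628 and 740.2 CPM. Atp6v0d2, a proton pump subunit of macrophage and osteoclast lysosomes, was found in 6 of 10 and in 1 microglia-like barcode. Arg1, an arginase associated with repair, was 1081 CPM, but 81.8% of its UMIs came from 1 barcode, and the median over barcodes was 59.0 CPM. Likewise, the haemoglobin scavenger receptor Cd163 and Lyve1 each came from a single macrophage-like barcode.

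By list, matrix and remodelling genes had 7 of 11 higher and none lower in macrophage-like barcodes, and lipid handling genes 5 of 15 higher and 2 lower. The iron and haem list had 1 of 8 higher and 1 lower. The ferritin light chain Ftl1 was the higher one, at 25831 CPM against 10472, and the exporter Slc40a1 the lower one, with no UMI in the macrophage-like barcodes. The heavy chain Fth1 was 26479.9 against 16162 CPM, under 2-fold apart. The injury-associated list divided, with 5 of 21 higher and 6 lower. Lpl was 19.4 CPM in macrophage-like and 438 in microglia-like barcodes, Igf1 13.9 and 139, Axl 55.4 and 285, and Cst7, a cystatin of activated microglia, 16.6 and 398. Apoe was level between the classes at 43329 and 44541 CPM. Of 9 complement genes, 5 were lower and 2 higher in macrophage-like barcodes, with C1qa ranging from 44.2 to 17000.2 CPM per barcode with a median of 4022. The type I interferon list had 11 of 18 genes lower and none higher, and the microglia-like sum behind this count includes cluster 5, where the list was at 11191 CPM beside 2504 in cluster 0. Sparc, a matricellular protein made by microglia and used here as one of their markers, was 66.5 and 3165 CPM.

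The mouse barcodes of SCI blood were of other types, which limits what a comparison with them can show. Among their 1230 barcodes, 390 were erythroid-like, 183 platelet or megakaryocyte-like, 129 neutrophil-like and 29 monocyte-like by cluster, and 499 stayed unnamed. The largest unnamed cluster, with 263 SCI blood barcodes, had Ifitm1, Cd14 and Lrg1 among its leading genes, and the next, with 134, had Ccrl2, Ptafr and Il1b. The neutrophil marker list summed to 98208 CPM over SCI blood, so the 129 named barcodes need not be all of its neutrophils. No class held 10 or more barcodes in both libraries, and the cord and blood barcodes were therefore compared as wholes, which mostly contrasts cell types. Over 9149 genes, 58.5% were higher in cord by over 2-fold and 11.7% lower, and the median log2 ratio was 1.36. The erythroid list, mostly haemoglobin, took up 347037 CPM in SCI blood and 15.2 CPM in cord. With TMM scaling the median ratio was 0.08, and the higher calls made up 52.4% of all calls in place of 83.3%.

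Against that background, 13 of 14 homeostatic microglia genes, 17 of 21 injury-associated, 18 of 19 lysosome and 13 of 15 lipid handling genes were higher in cord. Sparc, with 5351 UMIs in cord and none in SCI blood, was at least 2473-fold higher, taking 3 counts over the blood library as the floor. Spp1 was 22519 CPM in cord and 8.48 in SCI blood, and Arg1 209 CPM and 0. In the other direction, 10 of 11 neutrophil granule genes and 9 of 9 erythroid genes were lower in cord. Ifitm1, an interferon-induced membrane protein, had 6976 UMIs in SCI blood and none in cord. The cord barcodes thus carried little RNA of circulating cells, with Hbb-bs, a beta globin, at 2 UMIs in all 93 barcodes. Oxidative phosphorylation genes were higher in 18 of 19 cases, but in only 2 of 19 with TMM scaling, and no direction is given for them.

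The genes altered in the strain were scarcely seen at this depth. Il2rg, which carries the targeted allele, had 6 UMIs in 6 of the 93 barcodes, and Prkdc 8 UMIs in 7, and 3′ counts do not show whether either allele is functional. Of the human transgenes, IL3 had 10 UMIs in 5 mouse barcodes, CSF2 13 UMIs in 9 and KITLG 11 UMIs in 7. The 138 human barcodes of the same library held 0 UMIs of IL3, 0 of KITLG and 46 of CSF2, the last in 2 barcodes. Mouse barcodes held a median of 43 human UMIs in all, and the part of free human RNA in the transgene counts was not tested.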

How the data were processed

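Human CD45-enriched cells of 4 libraries, 1 per group, were sequenced with 10x 3′ chemistry. Reads were mapped to human and mouse genes at once in CellRanger 3.1.0 (builds hg38 and mm10 per the submitters' processing notes), and the authors deposited the raw UMI counts per gene and barcode. No other unit was used. Doublets had been gated out at sorting, no doublet caller was run on the 93 mouse barcodes, and 4 cord barcodes held between 10 and 90% mouse UMIs.

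From these counts, barcodes with over 50% mouse UMIs were kept. CPM was computed over mouse genes without ribosomal protein and mitochondrial genes. Clustering used 2000 variable genes, 15 components, 10 neighbours and a resolution of 1. A barcode was named after the class with the largest share of its markers at 2 or more UMIs, with at least 3 markers, and phagocytes were microglia-like from 6 of 12 microglia markers. This rule replaced cluster names, which changed with the settings, after values were seen. The members and gene lists were chosen with earlier results of these data known. Named genes were those of the fixed lists and markers, the 10 leading genes of each cluster and the 10 highest and lowest ratios against SCI blood (for the comparisons within the cord, chosen after seeing the data).

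Between sets of barcodes, counts were summed, 0.5 was added to each sum and the log2 ratio of the resulting CPM was taken, over genes with at least 20 counts in both together, and a gene past 2-fold was called. Intervals are exact at 95%. Barcodes were thinned to 1000 or 5000 UMIs, which left out 2 and 4 of them. Promoter sequences came from RefSeq. Alternatives to these settings were computed, and scripts were tested on simulated data. Python 3.11.15, scanpy 1.11.5, scipy 1.17.1, igraph 0.11.9 and, for TMM factors only, edgeR 4.0.16 were used. Some genes of the lists are not reported here by name.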

Additional observations from a re-analysis of the deposited data

Results flagged for a closer look

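In human-gene rows of the cord mouse barcodes, which enter none of the comparisons above, GH1 (human growth hormone) had 317 UMIs in 35 of 93 barcodes, against 2 UMIs in 2 of the 138 human barcodes of the same library. It drew attention as a signal above that of the human cells themselves, in rows on which nothing was reported. Of these UMIs, 244 were in 30 of the 74 microglia-like barcodes and 32 in 3 of the 10 macrophage-like ones. In blood, GH1 had 581 UMIs in 229 of 1230 mouse barcodes of SCI mice, 2796 in 710 of 1990 of sham mice and 19 in 11 of 1411 of naïve mice. Transgene cassettes of the kind used in this strain carry a human growth hormone sequence after the coding part, and whether these UMIs came from it was not tested.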

How the results depend on the processing

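No paired analysis was possible because each group was 1 library. Under the alternatives, 107 recomputed main values stayed within 1.5 times their count or within their counting interval, and 28 did not. The share in clusters named microglia-like, 28.0%, was 16.1% at a resolution of 1.5 and 0 with over 90% mouse UMIs, and the share by own markers, 79.6%, was 66.7% from 8 of 12 markers. Against SCI blood, higher and lower calls (5354 and 1072) were 2366 and 679 with at least 100 counts, 9159 and 2307 with at least 1, and 2651 and 2407 with TMM scaling; lower calls were 184 against naïve blood. Oxidative phosphorylation had 2 genes higher (TMM) in place of 18, and neutrophil granules 4 lower (naïve blood) in place of 10. In clusters 3 to 5 against 0, the 556 higher and 680 lower calls were 145 and 130 with at least 100 counts. They were 187 and 225 thinned to 5000 UMIs, and 157 and 1006 with 5 counts added. Lipid handling had 5 genes higher in place of 8 in both of the last settings. For macrophage-like barcodes, 399 and 1426 were 113 and 440 with at least 100 counts, 673 and 381 with 5 added and 260 and 495 thinned. The interferon list had 3 genes higher in clusters 3 to 5 with at least 100 counts, 3 thinned and 0 without cluster 5, in place of 10, and the log2 ratio of Ifit3 was -1.66 without cluster 5. Fewer genes were compared at higher count limits; the other causes were not tested. The alternatives within the cord were chosen after seeing the data. Only 93 barcodes and pooled animals limit all of these values.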
